A study of Mus musculus with 16 samples.

Results

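*Flrt1* encodes a membrane protein with leucine-rich repeats and a fibronectin type III domain. It was examined with its paralogs *Flrt2* and *Flrt3*, the UNC5 receptors *Unc5a*, *Unc5b*, *Unc5c* and *Unc5d*, the growth factor receptor *Fgfr1* and *Macrod1*, the gene in whose intron *Flrt1* lies. These are 9 of the 41388 genes in the count table. *Flrt1* was chosen by its response to tamoxifen in these libraries, and the other 8 by their known relation to it, with earlier results of these data known. The values that compare treated with untreated mice are therefore a description without a test, as are the differences of *Flrt1* between genotypes, treated and untreated, which rest on the libraries that chose it. For the other genes, differences between genotypes are tested.

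The series has 16 RNA-seq libraries of mouse quadriceps, 4 for each of 4 groups. By the labels, all mice had the strain background C57BL/6 and were sampled on postnatal day 36, while the study's supplement gives a slightly younger age for the RNA samples. *Mtm1* KO mice lack exon 4 of *Mtm1* in the germ line and model X-linked myotubular myopathy, and WT mice are wild type for this gene. WT + TAM and *Mtm1* KO + TAM mice received tamoxifen at 40 mg/kg per day in the diet from day 21, while WT and *Mtm1* KO mice received standard chow. The study left out a pair of libraries, the one labelled WT replicate 1 and the one labelled KO replicate 12. The comparisons therefore use 3 libraries of WT, 4 of WT + TAM, 3 of *Mtm1* KO and 4 of *Mtm1* KO + TAM. Total counts ranged from 27555316 to 28338738 in WT, from 25702605 to 26828632 in WT + TAM, from 26005229 to 28171147 in *Mtm1* KO and from 28272239 to 29847222 in *Mtm1* KO + TAM. The pair left out had 25116179 (labelled WT replicate 1) and 25979286 counts (labelled KO replicate 12).

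FLRT proteins sit in the cell membrane and bind UNC5 receptors and latrophilins on neighbouring cells. Through these contacts they guide cell adhesion, repulsion and axon growth, and they also associate with FGF receptors, whose signal runs through the MAPK cascade. Tamoxifen binds the estrogen receptor and acts as an agonist or antagonist depending on the tissue.

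Counts of *Mtm1* were checked against the labels. They were 369, 341 and 350 in WT, 282, 459, 345 and 329 in WT + TAM, 76, 63 and 76 in *Mtm1* KO and 53, 97, 93 and 92 in *Mtm1* KO + TAM. The library labelled KO replicate 12 had 85. The library labelled WT replicate 1 had 74 and thus lay with the knockout libraries in this gene, against its label. Its *Flrt2* level lay with WT, at 6.96 CPM where WT had 5.50 to 8.93 CPM (scaled over 16 libraries). The lowest *Mtm1* KO library had 10.6 CPM of *Flrt2*. The 10 most abundant genes took 26.86% of its counts, beside 23.61 to 27.62% in WT and 16.94 to 18.78% in *Mtm1* KO. Which genotype this library has was not tested. A count of reads per gene still includes reads from the exons that the knockout allele keeps. The tissue label was checked against 10 genes of skeletal muscle, whose CPM summed to between 98246 and 239480 in each of the 14 libraries, with *Acta1* as the most abundant and none at 0. CPM are counts relative to the library total, scaled by the trimmed mean of M values (TMM) over the 14 libraries unless another scale is named.

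The estrogen receptor gene *Esr1* had 27.8 ± 5.15 CPM (SD, n = 3) in WT and 27.9 ± 6.89 CPM (SD, n = 4) in WT + TAM. It had 16.7 ± 2.61 CPM (SD, n = 3) in *Mtm1* KO and 14.7 ± 2.86 CPM (SD, n = 4) in *Mtm1* KO + TAM. *Esr1* fell in *Mtm1* KO + TAM against WT + TAM (log2 fold change -0.92 ± 0.19 SE, edgeR quasi-likelihood test with Benjamini-Hochberg adjustment, adjusted p = 0.00704). In *Mtm1* KO against WT its log2 fold change was -0.72 ± 0.17 (SE, edgeR adjusted p = 0.0291), which did not pass the threshold of 0.01. It passed in both comparisons with DESeq2 and in neither with scaling by library size only. The progesterone receptor gene *Pgr*, a known estrogen target, had 0 counts in each WT library and 39 to 42 counts in the WT + TAM libraries. It had 0, 0 and 2 counts in *Mtm1* KO and 23 to 31 in *Mtm1* KO + TAM. *Greb1*, another known target, had 1 to 7 counts in WT, 9 to 23 in WT + TAM, 5 to 8 in *Mtm1* KO and 38 to 56 in *Mtm1* KO + TAM.

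*Flrt1* (ENSMUSG00000047787) lies on the minus strand of chromosome 19 from 7092001 to 7105729 (GRCm38, GENCODE vM21 annotation). Its only annotated transcript has 2 exons. Exon 1, from 7105087 to 7105729, has 643 bases and is noncoding. Exon 2, from 7092001 to 7097229, has 5229 bases and holds the whole coding sequence of 2025 bases with the stop codon. The gene sits within intron 3 of *Macrod1*, which runs on the plus strand from 7056810 to 7198057 and whose intron 3 spans 119372 bases from 7066204 to 7185575. *Flrt1* and *Macrod1* share 0 exon bases, and *Macrod1* is the only annotated gene that overlaps *Flrt1*. The strand setting of the counting is not given in the sources used here, so reads from unspliced *Macrod1* RNA across the *Flrt1* exons cannot be told apart from *Flrt1* reads.

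**Figure D1:**
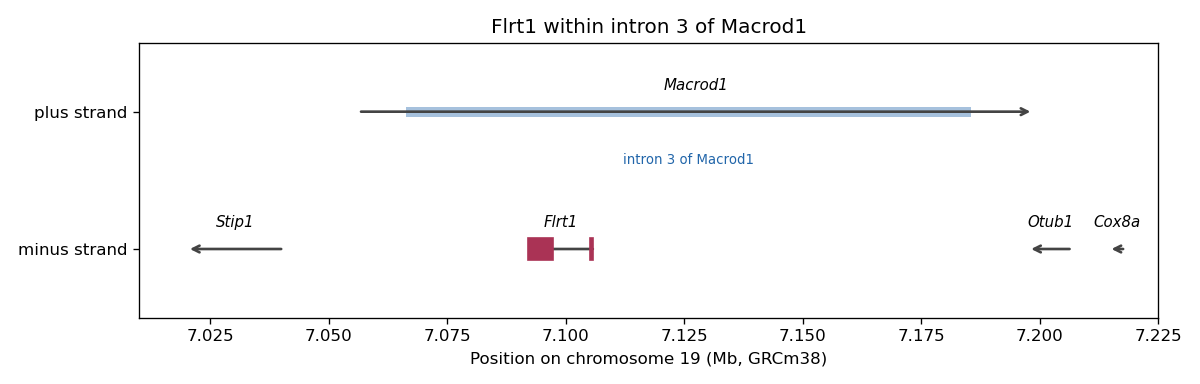
Map of *Flrt1* and some of the genes near it on chromosome 19, with the position in Mb (GRCm38) on the x axis and the strand on the y axis. Not drawn are *Fermt3* at the left edge and the antisense gene *AC109619.1*, which lies on the minus strand from 7087469 to 7088421 and is not in the count table. Arrows show the other genes in their direction of transcription, the red boxes joined by a line the 2 exons of *Flrt1*, and the blue bar intron 3 of *Macrod1*, which holds *Flrt1* on the opposite strand.

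Shared sequence was measured as the percentage of the 50-base exon stretches of a gene that are also found in another gene. The search could not record a stretch that genes of this set have in common on the same strand. It was 0.172% for *Flrt1* (10 of 5823 stretches), and 0 for *Flrt2*, *Flrt3*, *Macrod1*, *Unc5a* and *Unc5d*. It was 0.224% for *Unc5b*, 0.395% for *Unc5c* and 1.49% for *Fgfr1*. Within that limit, such stretches were recorded among the 9 genes only between *Flrt1* and *Unc5b*. Those of *Flrt1* are found in 92 other genes and those of *Unc5b* in 513. The closest stretches of the 3 paralogs are shown because reads could only be shared where the sequence is the same. The longest run of identical bases in the coding sequences of *Flrt1* and *Flrt2* has 18 bases, at chr19:7096683-7096724 on the minus strand and chr12:95779292-95779333 on the plus strand with 12 bases on either side. For *Flrt1* and *Flrt3* it has 14 bases, at chr19:7095745-7095782 on the minus strand and chr2:140660355-140660392 on the minus strand. Capitals mark the identical run, and the sequences are from the GENCODE vM21 transcripts (GRCm38).
*Flrt1* beside *Flrt2*: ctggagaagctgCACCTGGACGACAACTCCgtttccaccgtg
*Flrt2*: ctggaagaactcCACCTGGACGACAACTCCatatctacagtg
*Flrt1* beside *Flrt3*: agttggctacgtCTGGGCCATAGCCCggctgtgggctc
*Flrt3*: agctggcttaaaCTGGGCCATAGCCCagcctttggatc
Both runs lie in coding sequence and are shorter than the 50-base stretches. In the coding sequences, no 50-base stretch is therefore common to *Flrt1* and a paralog on the same strand. The noncoding exon bases of the paralogs were not compared in this way.

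*Flrt1* was near the lower end of detection without tamoxifen and among the higher members with it. Its counts were 37, 16 and 25 in WT replicates 2 to 4, and 2615, 2301, 2508 and 2611 in WT + TAM replicates 5 to 8. They were 19, 51 and 42 in *Mtm1* KO replicates 9 to 11, and 1280, 496, 352 and 1375 in *Mtm1* KO + TAM replicates 13 to 16. Every treated library lay above every untreated library. The WT + TAM libraries lay close together, whereas among the *Mtm1* KO + TAM libraries replicates 13 and 16 were high and replicates 14 and 15 low. The mean level was 1.02 ± 0.350 CPM (SD, n = 3) in WT and 107 ± 9.05 CPM (SD, n = 4) in WT + TAM. For *Mtm1* KO it was 1.23 ± 0.543 CPM (SD, n = 3) untreated and 28.5 ± 18.6 CPM (SD, n = 4) treated. WT and *Mtm1* KO, next to each other in this order, did not differ beyond their spread. The log2 fold change with tamoxifen was 6.69 ± 0.23 (SE) in WT and 4.52 ± 0.60 (SE) in *Mtm1* KO. The difference between these effects was -2.16 ± 0.71 (SE) in 1 fit of the 4 groups. With all 16 libraries the fold changes were 6.14 ± 0.42 (SE) and 4.26 ± 0.55 (SE), where the library labelled WT replicate 1 counts as WT although its *Mtm1* count lies with the knockouts. These are the values that chose *Flrt1*. In WT + TAM against WT, 19 of the 14544 genes tested passed an adjusted p of 0.01 (0.131%) with edgeR and 208 of 22309 with DESeq2, and in *Mtm1* KO + TAM against *Mtm1* KO 0 of 15062 passed (0%) with edgeR, with 1137 at an unadjusted p of at most 0.05, while DESeq2 called 67 of 23010. Leaving out 1 library gave 2 to 21 genes in the former comparison and 0 to 1 in the latter.

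**Figure D2:**
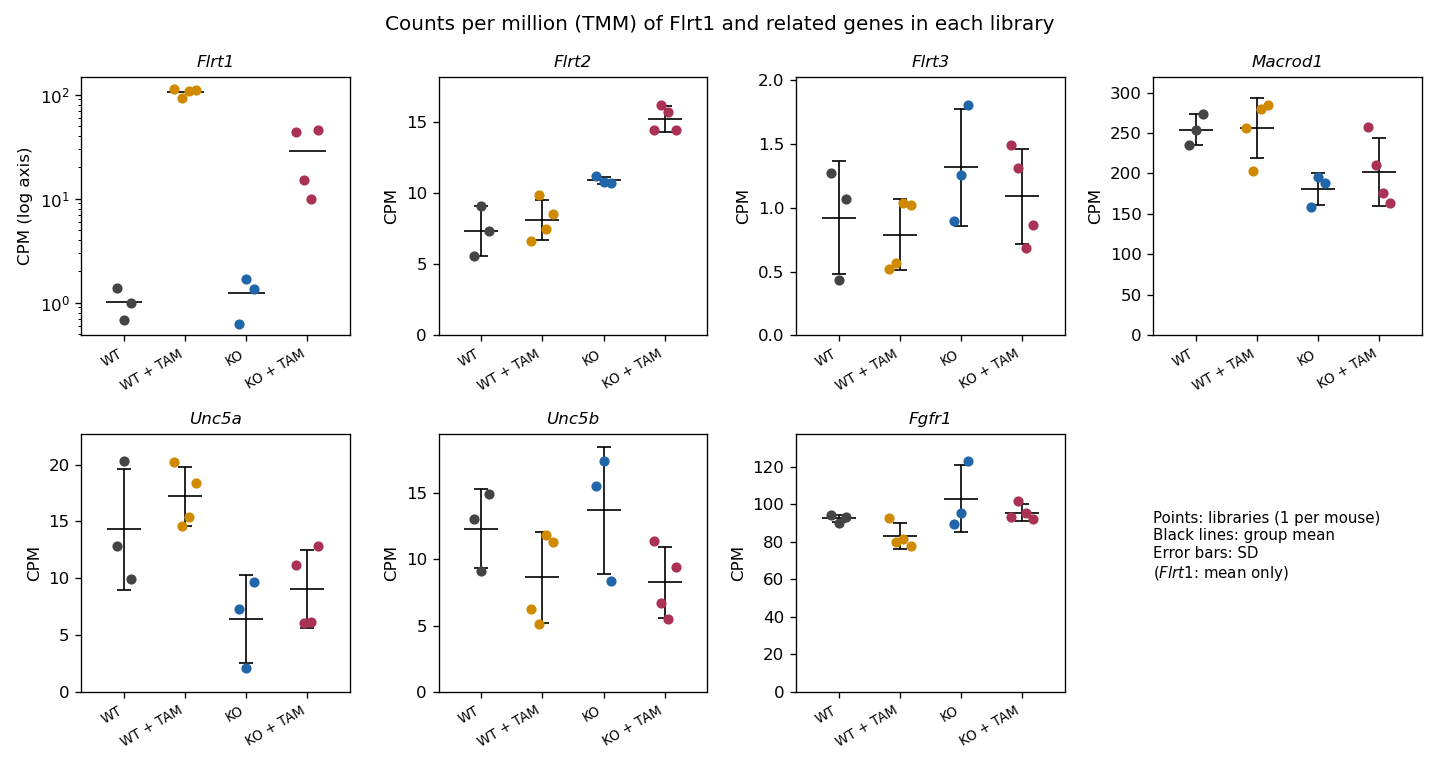
CPM (y axis, TMM scaling, a log axis for *Flrt1* only) of 7 genes in each library of the 4 groups (x axis). Points are libraries of 1 mouse each, black lines group means and error bars the SD (mean only for *Flrt1*), and *Flrt1* lies between 93.8 and 114 CPM in WT + TAM and between 10 and 45.8 CPM in *Mtm1* KO + TAM.

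Between the genotypes without tamoxifen, the log2 fold change of *Flrt1* was 0.28 ± 0.47 (SE, *Mtm1* KO against WT), given without a test. The 3 *Mtm1* KO libraries had 0.631, 1.69 and 1.36 CPM and the 3 WT libraries 1.39, 0.688 and 0.989 CPM, so the groups overlapped. The value turned to -0.01 without KO replicate 10. It was 0.53 with only the library labelled KO replicate 12 added, and -0.04 with all 16 libraries, which count the library labelled WT replicate 1 as WT against its *Mtm1* count.

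In treated mice, *Flrt1* was lower in *Mtm1* KO than in WT. The 4 *Mtm1* KO + TAM libraries had 43.3, 15.1, 10 and 45.8 CPM and the 4 WT + TAM libraries 114, 93.8, 108 and 111 CPM. The groups did not overlap, and each of the 4 *Mtm1* KO + TAM libraries lay below the lowest WT + TAM library. The log2 fold change was -1.91 ± 0.40 (SE), beside -2.16 for the difference of the tamoxifen effects. It is given without a test, because *Flrt1* was chosen by its response in these same libraries. With 1 library left out it stayed between -2.23 and -1.61. In this bulk tissue, fewer cells of a type and less RNA per cell cannot be told apart.

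Markers of skeletal muscle also differed between the treated genotypes. They differed between the untreated ones as well, where the *Flrt1* values overlapped. Without tamoxifen the marker sums were 199752 ± 34457 CPM (SD, n = 3) in WT and 115701 ± 9715 CPM (SD, n = 3) in *Mtm1* KO. Of the 10 genes in the list, 1 was called higher (*Des*) and 3 lower (*Ckm*, *Myh4* and *Pvalb*) in *Mtm1* KO + TAM against WT + TAM, where 6.72% of all genes tested were called. DESeq2 called 9 of the 10. Their summed CPM were 201464, 184193, 195020 and 190648 in WT + TAM and 145103, 116056, 98246 and 125530 in *Mtm1* KO + TAM, with *Acta1* the most abundant and none at 0. The *Mtm1* KO + TAM replicates with the higher *Flrt1* counts, 13 and 16, also had the higher sums. The same held for 4 other marker lists, those of endothelial cells, smooth muscle and pericytes, fibroblasts and fat cells, and the reverse for Schwann cells and nerve. The endothelial sums, led by *Pecam1*, were 251, 180, 166 and 262 CPM in *Mtm1* KO + TAM replicates 13 to 16. In WT + TAM they were 214, 210, 278 and 280 CPM, so the genotypes overlapped, and 0 of 5 genes were called by edgeR (1 at an unadjusted p of at most 0.05) and 0 by DESeq2. The 10 most abundant genes took 24.2 to 25.3% of all counts in WT + TAM and 15 to 19% in *Mtm1* KO + TAM. The part of muscle content, of these other cell types and of these abundant genes in the *Flrt1* difference was not tested. With scaling by library size only, the median over all genes tested moved from -0.01 to 0.27 in log2 fold change, and that of *Flrt1* was -1.66.

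The level of *Flrt1* among the 9 genes was compared in RPKM, which accounts for gene length. In WT, *Macrod1* had the highest level with 180 RPKM, followed by *Fgfr1* with 10.3, *Unc5a* with 3.05, *Unc5b* with 1.91, *Flrt2* with 0.849, *Flrt3* with 0.174 and *Flrt1* with 0.159 RPKM. *Unc5c* and *Unc5d* were at 0.0207 and 0.0150 RPKM. The WT values of *Unc5a* overlapped those of *Unc5b*, those of *Flrt3* overlapped those of *Flrt1*, and those of *Unc5c* overlapped those of *Unc5d*. In WT + TAM, *Flrt1* was second with 16.4 ± 1.20 RPKM (SD, n = 4), above *Fgfr1* with 9.19 ± 0.640 RPKM (SD, n = 4), without overlap. In *Mtm1* KO, *Flrt1* was seventh with 0.238 ± 0.106 RPKM (SD, n = 3), and its values overlapped those of *Flrt3* with 0.307 ± 0.0987 RPKM (SD, n = 3). In *Mtm1* KO + TAM, *Flrt1* came after *Macrod1* and *Fgfr1* with 5.18 ± 3.19 RPKM (SD, n = 4), where *Fgfr1* had 12.9 ± 1.21 RPKM (SD, n = 4). There its values overlapped those of *Unc5a*, next in order with 2.34 ± 0.792 RPKM (SD, n = 4).

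Of the paralogs, *Flrt2* was higher in *Mtm1* KO than in WT muscle when both were treated. It had 5.58, 9.08 and 7.36 CPM in WT and 11.2, 10.8 and 10.7 CPM in *Mtm1* KO. With tamoxifen it had 6.59, 9.83, 7.47 and 8.53 CPM in WT and 14.4, 16.2, 15.7 and 14.4 CPM in *Mtm1* KO. The genotypes did not overlap in either pair of groups, under any of the 5 scales tried. Its log2 fold change was 0.91 ± 0.15 (SE, edgeR adjusted p = 0.00219) in *Mtm1* KO + TAM against WT + TAM, higher in 4 of 4 libraries, with p = 0.029 in the exact permutation test, two-sided, the smallest p that 4 against 4 libraries allow. Over the 8 fits that left out 1 library, its adjusted p ranged from 0.00185 to 0.00940. Without tamoxifen it was 0.60 ± 0.20 (SE, edgeR adjusted p = 0.0775), and the exact permutation test gave p = 0.10, the smallest p that 3 against 3 libraries allow. That comparison passed the threshold with scaling by library size only (0.92, edgeR adjusted p = 0.00998), and over all alternatives its adjusted p ranged from 0.00998 to 0.183. The log2 fold change of *Flrt2* with tamoxifen was 0.15 ± 0.21 (SE) in WT and 0.46 ± 0.13 (SE) in *Mtm1* KO. The former was -0.01 without WT replicate 2 and 0.32 without WT replicate 3.

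*Flrt3* was low throughout, with 10 to 56 counts in the 14 libraries. Its log2 fold change was 0.53 ± 0.48 (SE, edgeR adjusted p = 0.50) in *Mtm1* KO against WT and 0.46 ± 0.38 (SE, edgeR adjusted p = 0.440) in *Mtm1* KO + TAM against WT + TAM. With tamoxifen it was -0.24 ± 0.48 (SE) in WT and -0.30 ± 0.39 (SE) in *Mtm1* KO. All 4 values moved with 1 library left out, from 0.20 to 0.83 and from 0.29 to 0.64 between genotypes, and with tamoxifen from -0.58 to 0.07 in WT, above 0 without WT replicate 2, and from -0.51 to -0.00 in *Mtm1* KO. The genotypes overlapped in both comparisons.

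*Macrod1*, the host gene, encodes an enzyme that removes ADP-ribose from proteins. It had 235, 254 and 274 CPM in WT and 158, 196 and 188 CPM in *Mtm1* KO. With tamoxifen it had 256, 203, 280 and 285 CPM in WT and 257, 211, 176 and 163 CPM in *Mtm1* KO. The untreated genotypes did not overlap, and the treated ones did. The untreated genotypes overlapped as well with scaling by library size only and in RPKM. The library labelled KO replicate 12 had 241 CPM, within the 232 to 270 CPM of WT (scaled over 16 libraries), so the untreated genotypes overlapped once it was added. For *Macrod1* the log2 fold change was -0.47 ± 0.13 (SE, edgeR adjusted p = 0.0496) in *Mtm1* KO against WT, which missed the threshold of 0.01, and -0.34 ± 0.16 (SE, edgeR adjusted p = 0.170) in *Mtm1* KO + TAM against WT + TAM. With scaling by library size only these values were -0.16 and -0.07. In the tamoxifen comparisons its log2 fold change was 0.01 ± 0.13 (SE) in WT and 0.15 ± 0.17 (SE) in *Mtm1* KO, beside the 6.69 and 4.52 of *Flrt1* in its intron. Leaving out 1 library gave -0.04 to 0.11 in WT and 0.02 to 0.24 in *Mtm1* KO, and all 16 libraries gave -0.35 in WT, with the library labelled WT replicate 1 counted as WT, which had 536 CPM and the *Mtm1* count of a knockout.

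Other genes near *Flrt1* were looked at in the same way. Within 250 kb on either side, 29 other genes are annotated, *Macrod1* included, of which 28 are in the count table and 22 were tested in each comparison. Of these 22, *Macrod1* included, 0 passed the threshold with edgeR in *Mtm1* KO against WT or in *Mtm1* KO + TAM against WT + TAM, and no other tool was run for this count. At an unadjusted p of at most 0.05 there were 6 in each, where 30.1% and 32.3% of all genes tested were at that p. The tamoxifen comparisons, which chose *Flrt1*, are given as values without a test. The log2 fold changes ran from -0.63 (*Rcor2*) to 0.56 (*Cox8a*) in WT + TAM against WT, and from -0.68 (*Rcor2*) to 0.31 (*Dnajc4*) in *Mtm1* KO + TAM against *Mtm1* KO. Their medians were 0.01 and 0.00, beside -0.00 and -0.01 over all genes tested. For *Esrra*, which encodes an estrogen-related receptor, the log2 fold change with tamoxifen was 0.02 ± 0.13 (SE) in WT and 0.13 ± 0.16 (SE) in *Mtm1* KO. The flanking genes *Stip1* and *Otub1* had 0.25 ± 0.12 (SE) and 0.34 ± 0.11 (SE) in WT and 0.05 ± 0.16 (SE) and 0.23 ± 0.14 (SE) in *Mtm1* KO.

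The UNC5 receptors bind netrins and FLRT proteins. *Unc5a* had 12.8, 20.3 and 9.89 CPM in WT and 7.30, 2.13 and 9.69 CPM in *Mtm1* KO. With tamoxifen it had 20.2, 14.6, 15.4 and 18.4 CPM in WT and 11.2, 6.09, 6.15 and 12.8 CPM in *Mtm1* KO. The *Mtm1* KO libraries lay below the WT libraries in both comparisons on this scale, although the highest *Mtm1* KO and the lowest WT library were close. In RPKM and with scaling by library size only the genotypes overlapped in both. The library labelled KO replicate 12 had 16.1 CPM, within the 9.76 to 19.9 CPM of WT (scaled over 16 libraries), which ended the separation without tamoxifen. For *Unc5a* the log2 fold change was -1.14 ± 0.47 (SE, edgeR adjusted p = 0.139) in *Mtm1* KO against WT. It ranged from -1.57 to -0.71 with 1 library left out, the latter without KO replicate 10, which had 2.13 CPM. In *Mtm1* KO + TAM against WT + TAM it was -0.92 ± 0.24 (SE, edgeR adjusted p = 0.0254), with p = 0.029 in the exact permutation test. That p was 0.0571 with scaling by library size only and in RPKM, and 0.029 to 0.0571 over the 8 exact permutation tests without 1 library. Neither passed the threshold of 0.01 in edgeR, whereas DESeq2 gave an adjusted p of 0.00303 for the treated groups. Over the alternatives with a test, library omissions included, that adjusted p ranged from 0.00303 to 0.0881. With tamoxifen the log2 fold change of *Unc5a* was 0.27 ± 0.23 (SE) in WT and 0.49 ± 0.43 (SE) in *Mtm1* KO, and leaving out 1 library gave 0.06 to 0.59 and 0.08 to 0.93.

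*Unc5b* had 211 to 377 counts in WT, 126 to 274 in WT + TAM, 258 to 524 in *Mtm1* KO and 193 to 338 in *Mtm1* KO + TAM. Between genotypes its log2 fold change was 0.18 ± 0.28 (SE, edgeR adjusted p = 0.707) without tamoxifen and -0.07 ± 0.30 (SE, edgeR adjusted p = 0.900) with it. The former turned to -0.02 without KO replicate 10. The latter turned above 0 with scaling by library size only (0.19), and without WT + TAM replicates 7 or 8 or KO + TAM replicates 14 or 15 (at most 0.12). With tamoxifen the values were -0.52 ± 0.31 (SE) in WT, -0.33 without WT + TAM replicate 6, and -0.75 ± 0.29 (SE) in *Mtm1* KO. *Unc5c* had 6, 6 and 9 counts in WT, 2, 1, 0 and 1 in WT + TAM, 1, 7 and 5 in *Mtm1* KO and 4, 0, 3 and 9 in *Mtm1* KO + TAM. The WT libraries lay above the WT + TAM libraries, and the other groups overlapped with both. *Unc5d* had 0 to 9 counts, with 9 of the 14 libraries at 0. Both were below the filter on low counts and were left out of the edgeR fits. In the exact permutation tests between genotypes, p was 0.20 without and 0.343 with tamoxifen for *Unc5c*, and 0.40 and 1.0 for *Unc5d*.

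*Fgfr1*, an FGF receptor known to associate with FLRT proteins, was at 92.5 ± 2.02 CPM (SD, n = 3) in WT and 83.0 ± 6.78 CPM (SD, n = 4) in WT + TAM. It was at 103 ± 18.0 CPM (SD, n = 3) in *Mtm1* KO and 95.6 ± 4.45 CPM (SD, n = 4) in *Mtm1* KO + TAM. Between genotypes its log2 fold change was 0.18 ± 0.14 (SE, edgeR adjusted p = 0.448) in *Mtm1* KO against WT and 0.21 ± 0.10 (SE, edgeR adjusted p = 0.180) in *Mtm1* KO + TAM against WT + TAM, with p = 0.0571 in the exact permutation test. The former was 0.02 without KO replicate 11, which had the highest level of that group, and 0.48 with scaling by library size only. The latter passed with scaling by library size only (0.49, edgeR adjusted p = 0.00856), and over all alternatives its adjusted p ranged from 0.00856 to 0.357. With that scaling and in RPKM the genotypes did not overlap in either comparison, and the exact permutation p was 0.029 with tamoxifen and 0.10 without. With tamoxifen the log2 fold change was -0.16 ± 0.11 (SE) in WT and -0.12 ± 0.13 (SE) in *Mtm1* KO, which turned to 0.04 without KO replicate 11.

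**Figure D3:**
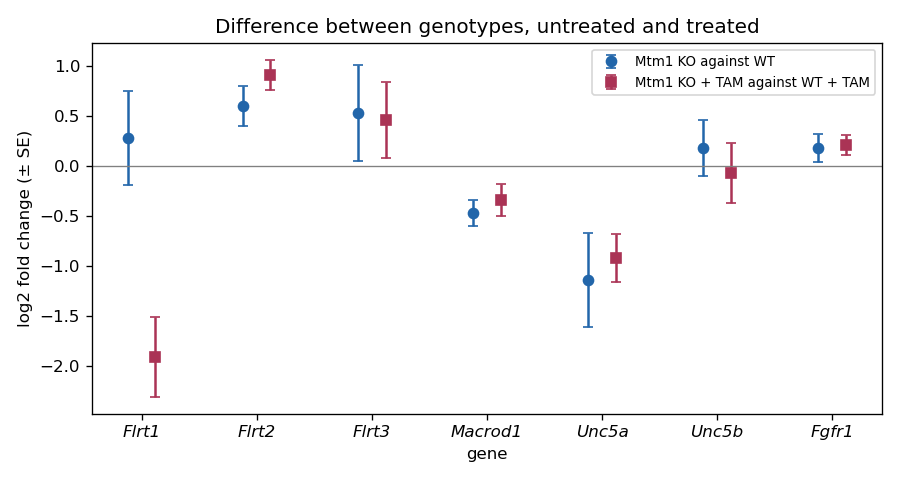
Log2 fold change between genotypes (y axis) of the 7 genes tested (x axis), in untreated (circles) and treated (squares) mice. Error bars are 1 SE, derived from the F statistic of the edgeR fit. *Flrt1* is at 0.28 without and -1.91 with tamoxifen, and *Flrt2* at 0.60 and 0.91, while the sign for *Unc5b* in treated mice (-0.07) turns with scaling by library size only (0.19).

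Counted over the 9 genes, 7 had enough counts to be tested, *Flrt1* among them, while *Unc5c* and *Unc5d* did not. Without tamoxifen, 0 of the tested genes other than *Flrt1* were called between *Mtm1* KO and WT by edgeR, where 3.60% of all genes tested were called (531 of 14740). At an unadjusted p of at most 0.05 there were 3, *Flrt2*, *Macrod1* and *Unc5a*, where 30.1% of all genes tested were at that p, and DESeq2 called 0. At a threshold of 0.05 the count was 1, *Macrod1*, and with scaling by library size only it was 1, *Flrt2*. That scaling moved the median of all genes from 0.02 to 0.33. With tamoxifen, 1 of the tested genes other than *Flrt1* was called by edgeR, *Flrt2*, where 6.72% of all genes tested were called (979 of 14563). DESeq2 also called *Unc5a*. Over all genes tested, leaving out 1 library gave 182 to 363 genes without tamoxifen and 424 to 921 with it. For the difference between the tamoxifen effects, 0 of 15556 genes (0%) were called by edgeR, with 664 at an unadjusted p of at most 0.05. The groups did not overlap for 3 of the 7 genes tested in each genotype comparison. These were *Flrt2*, *Macrod1* and *Unc5a* without tamoxifen and *Flrt1*, *Flrt2* and *Unc5a* with it. Over all genes tested, the groups did not overlap for 36.3% without and 22.5% with tamoxifen, so the share without tamoxifen is near that of all genes. Which genes these were depended on the scaling. With library size only and in RPKM they were *Flrt2* and *Fgfr1* without tamoxifen and *Flrt1*, *Flrt2* and *Fgfr1* with it, and with library size only 47.3% and 30.1% of all genes tested did not overlap. With tamoxifen nothing is read from *Flrt1*, which these libraries chose, and of the other genes tested *Flrt2* and *Unc5a* did not overlap on the TMM scale. Without tamoxifen, and with the library labelled KO replicate 12 added, only *Flrt2* of the 9 genes remained without overlap. The exact permutation tests were 18 in all, of which the 2 of *Flrt1* are not given, and their p-values are not adjusted.

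The genes whose pattern was most like that of *Flrt1* were found by the root mean square difference of log2 CPM, each gene centred on its own mean, over the 14 libraries and 12391 genes. They were *Aqp5* (1.11), *Oxtr* (1.15), *Tgm3* (1.16), *Mmd2* (1.42), *Otoa* (1.49) and *Gm6484* (1.78), and the median over the 12391 genes was 2.90. The same 6 genes came first with all 16 libraries. In the treated libraries *Aqp5*, a water channel gene, had 57 to 228 counts, and in the untreated libraries 0 to 5. *Oxtr*, the oxytocin receptor gene, had 71 to 266 counts with tamoxifen and 1 to 29 without. *Tgm3*, a transglutaminase gene, had 19 to 220 counts with tamoxifen and 0 to 4 without. For these 3 genes and for *Mmd2* and *Gm6484* every treated library lay above every untreated library in CPM. For *Otoa* they overlapped, as *Mtm1* KO + TAM libraries had only 7 to 33 counts and WT + TAM libraries 51 to 93. Of the other 8 genes of the set, 5 were among those compared, and *Unc5a* came closest at rank 299 with a difference of 2.66.

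Genes of the FLRT partners and of the pathways around them were taken from 7 lists with 73 genes, none of them among the 9. These lists were chosen with earlier results of these data known, so their shares beside those of all genes are a description. In WT + TAM against WT, 0 of the 59 tested were called by edgeR (9 at an unadjusted p of at most 0.05), and in *Mtm1* KO + TAM against *Mtm1* KO 0 of 61 (5 at an unadjusted p of at most 0.05). Over all genes tested, 0.131% and 0% were called, and 10.7% and 7.55% were at that unadjusted p. Of the genes in these lists, DESeq2 called 0 in both comparisons. Nothing is read from these 2 comparisons, which chose *Flrt1*. For the difference between the tamoxifen effects, 0 of 63 were called by edgeR (1 at an unadjusted p of at most 0.05, beside 4.27% of all genes tested). In *Mtm1* KO against WT, 9 of 60 were called (15%), 2 higher and 7 lower, beside 3.60% of all genes tested. At an unadjusted p of at most 0.05 there were 21 of 60, beside 30.1% of all genes tested. *Kl* is counted in both genotype comparisons although it passed the filter on low counts only through WT or WT + TAM. Without it, 8 of 59 (13.6%) were called without tamoxifen and 9 of 58 (15.5%) with it. The median log2 fold change of the 60 was 0.04, beside 0.02 over all genes tested. In *Mtm1* KO + TAM against WT + TAM, 10 of 59 were called (16.9%), 4 higher and 6 lower, beside 6.72% of all genes tested, with a median of -0.01 beside -0.01 over all genes tested. At an unadjusted p of at most 0.05 there were 23 of 59, beside 32.3%. With scaling by library size only, 6 of 60 were called without tamoxifen, beside 1163 of 14740 over all genes, and 11 of 59 with it, beside 1874 of 14563. Both comparisons share no library, but both have the same genotype contrast.

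The count without tamoxifen rested on all 6 libraries. It was 2 without WT replicates 2 or 3 or KO replicates 10 or 11, and 3 without WT replicate 4 or KO replicate 9. It was 3 with the 16 libraries (211 of 14625 over all genes), 6 with only the library labelled KO replicate 12 added (349 of 14966) and 12 by DESeq2 (1600 of 22646), beside 182 to 363 over all genes with 1 library left out. The count over all genes, 531 of 14740 in the comparison as planned, thus moved as well. Only *Fgfbp1* and *Lrtm1* were called in each of the 6 fits that left out 1 library. With tamoxifen the count was 6 without WT + TAM replicate 7 (554 of 14866 over all genes) and 6 without KO + TAM replicate 15 (424 of 14743). Both counts include *Kl*, which entered these fits through WT + TAM alone. With *Kl* set aside, *Adprhl1*, *Hjv*, *Lrrn1*, *Lrrn2* and *Lrtm1* were called in each of the 8 fits that left out 1 library.

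Among the latrophilins and teneurins, receptors and ligands at cell contacts, 1 of 6 was called in each genotype comparison. This was *Adgrl1*, which encodes a latrophilin that binds FLRT proteins. It fell from 47.2 ± 1.54 CPM (SD, n = 3) in WT to 28.2 ± 2.03 CPM (SD, n = 3) in *Mtm1* KO (log2 fold change -0.72 ± 0.12 SE, edgeR adjusted p = 0.00636). With tamoxifen the level was 45.2 ± 6.50 CPM (SD, n = 4) in WT and 27.9 ± 3.18 CPM (SD, n = 4) in *Mtm1* KO (-0.70 ± 0.13 SE, edgeR adjusted p = 0.00504). With scaling by library size only these values were -0.41 and -0.42, and neither passed (edgeR adjusted p = 0.0386 and 0.0328). It missed the threshold in all 6 fits without 1 untreated library (edgeR adjusted p from 0.0114 to 0.0310). With tamoxifen it missed it without WT + TAM replicates 7 and 8 (0.0176 and 0.0177) and without KO + TAM replicates 13, 14 and 15 (0.0155, 0.0182 and 0.0237). Of the netrins, RGM proteins and their receptors, 1 of 12 was called in each. This was *Hjv*, which encodes hemojuvelin, an RGM family protein made in muscle and liver. It had 879 ± 121 CPM (SD, n = 3) in WT and 463 ± 21.0 CPM (SD, n = 3) in *Mtm1* KO (-0.90 ± 0.15 SE, edgeR adjusted p = 0.00628), and 686 ± 42.0 CPM (SD, n = 4) in WT + TAM and 429 ± 25.1 CPM (SD, n = 4) in *Mtm1* KO + TAM (-0.68 ± 0.11 SE, edgeR adjusted p = 0.00195). These too missed the threshold with scaling by library size only (-0.58 and -0.40). *Hjv* also missed it in all 6 fits without 1 untreated library (edgeR adjusted p from 0.0111 to 0.0280).

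Of the FGF receptors and co-receptors other than *Kl*, 1 of 7 was called without tamoxifen, *Fgfr4*, which was lower in *Mtm1* KO. With tamoxifen 0 of 7 were called by edgeR and 0 by DESeq2, and 3 were at an unadjusted p of at most 0.05 in each comparison. *Fgfr4*, an FGF receptor of muscle precursor cells, had 6.34 ± 1.88 CPM (SD, n = 3) in WT and 1.80 ± 0.572 CPM (SD, n = 3) in *Mtm1* KO (-1.79 ± 0.31 SE, edgeR adjusted p = 0.00894). With tamoxifen its log2 fold change was -1.0 ± 0.30 (SE, edgeR adjusted p = 0.0447), which was not called. *Kl*, the gene of the co-receptor Klotho, had 31 to 40 counts in WT, 15 to 35 in WT + TAM, 2 to 9 in *Mtm1* KO and 0 to 3 in *Mtm1* KO + TAM. Its *Mtm1* KO libraries all lie below the minimum count of 10, so it entered the fits through the other genotype alone. Its levels are therefore a description, with no test or fold change. *Fgfr4* missed the threshold in all 6 fits without 1 untreated library (edgeR adjusted p from 0.0150 to 0.0362), and also with scaling by library size only. Of the FGF ligands and their carrier, 1 of 8 was called in each. This was *Fgfbp1*, the gene of a protein that releases FGF from the matrix, with 4.78 ± 1.54 CPM (SD, n = 3) in WT and 0.471 ± 0.0974 CPM (SD, n = 3) in *Mtm1* KO (-3.31 ± 0.35 SE, edgeR adjusted p = 0.00121). With tamoxifen its log2 fold change was -2.24 ± 0.39 (SE, edgeR adjusted p = 0.00351), and it missed the threshold without WT + TAM replicate 7 (0.0101) and without KO + TAM replicates 14 and 15 (0.0115 and 0.0117). Of the FGF and MAPK feedback genes, 0 of 11 were called by edgeR without tamoxifen (1 at an unadjusted p of at most 0.05, and 0 by DESeq2) and 1 of 11 with it. This was *Spry2*, a Sprouty inhibitor of receptor signals, at 0.67 ± 0.13 (SE, edgeR adjusted p = 0.00722). It missed the threshold in all 8 fits that left out 1 library (edgeR adjusted p from 0.0101 to 0.0203).

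Of the ADP-ribose hydrolases, the enzyme class of *Macrod1*, 1 of 6 was called without tamoxifen and 2 of 6 with it. *Adprhl1*, a relative of the ADP-ribosyl hydrolases, rose from 21.5 ± 3.65 CPM (SD, n = 3) in WT to 45.2 ± 4.67 CPM (SD, n = 3) in *Mtm1* KO (1.09 ± 0.16 SE, edgeR adjusted p = 0.00372) and had 1.10 ± 0.16 (SE, edgeR adjusted p = 0.00139) with tamoxifen. Without tamoxifen *Adprhl1* was called without WT replicate 4 (edgeR adjusted p = 0.00776) and missed the threshold without WT replicates 2 and 3 (0.0149 and 0.0140) and without KO replicates 9, 10 and 11 (0.0116, 0.0132 and 0.0101). *Macrod2*, which lies on the plus strand of chromosome 2 from 140395309 to 142392966 and whose span holds *Flrt3* on the minus strand from 140650914 to 140671469, had -0.80 ± 0.16 (SE, edgeR adjusted p = 0.0134) without tamoxifen, which was not called, and -0.71 ± 0.12 (SE, edgeR adjusted p = 0.00252) with it. Without tamoxifen *Macrod2* passed in 3 of the alternatives, DESeq2 among them. Its value with tamoxifen was -0.43 with scaling by library size only (edgeR adjusted p = 0.0245). It also missed the threshold without WT + TAM replicates 7 and 8 (0.0104 each) and without KO + TAM replicate 15 (0.0123).

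Other membrane proteins with leucine-rich repeats, relatives of the FLRT proteins in structure, had 3 of 9 called without tamoxifen, 1 higher and 2 lower, and 3 of 8 with it, 2 higher and 1 lower. *Lrrn2* rose from 1.97 ± 0.518 CPM (SD, n = 3) in WT to 6.63 ± 1.53 CPM (SD, n = 3) in *Mtm1* KO (1.77 ± 0.28 SE, edgeR adjusted p = 0.00606) and had 2.03 ± 0.23 (SE, edgeR adjusted p = 4.12e-04) with tamoxifen. *Lrrn1* had 1.26 ± 0.32 (SE, edgeR adjusted p = 0.0357) without tamoxifen, which was not called, and 1.65 ± 0.20 (SE, edgeR adjusted p = 4.94e-04) with it. Without tamoxifen *Lrrn1* passed in 2 of the alternatives, DESeq2 among them. *Lrtm1* fell from 97.9 ± 18.1 CPM (SD, n = 3) in WT to 27.0 ± 3.31 CPM (SD, n = 3) in *Mtm1* KO (-1.83 ± 0.17 SE, edgeR adjusted p = 6.02e-04) and had -1.66 ± 0.22 (SE, edgeR adjusted p = 9.02e-04) with tamoxifen. *Lrtm2* fell without tamoxifen (-1.86 ± 0.27 SE, edgeR adjusted p = 0.00380), and with it had -1.23 ± 0.31 (SE, edgeR adjusted p = 0.0208), which was not called. It passed without KO + TAM replicate 13 (0.00482), with DESeq2 (8.87e-04), with no filter (0.00627) and in 1 fit of the 4 groups (0.00879), and over all alternatives its adjusted p ranged from 8.87e-04 to 0.0582. *Lrrn2* missed the threshold in all 6 fits without 1 untreated library (edgeR adjusted p from 0.0112 to 0.0241). *Lrtm2* passed without KO replicate 9 (0.00999) and missed it in the 5 other such fits. Genes called in only 1 of the genotype comparisons are not shown to differ between them, as the difference of the tamoxifen effects, which is the same contrast, had 0 called.

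Markers of other cell types are given beside these differences. Over all genes tested, 3.60% were called without and 6.72% with tamoxifen, and 30.1% and 32.3% were at an unadjusted p of at most 0.05. Without tamoxifen, the skeletal muscle sums were 181765, 239480 and 178011 CPM in WT and 109367, 110850 and 126886 CPM in *Mtm1* KO. Of the 10 genes 1 was called, *Des*, which was higher (0.98 ± 0.17 SE, edgeR adjusted p = 0.00832), and 8 were at an unadjusted p of at most 0.05, as were all 10 with tamoxifen. DESeq2 called 8 of the 10 without tamoxifen. The immune cell list, led by *Csf1r*, summed to 51.5, 40.9 and 42.9 CPM in WT and 56.4, 86.2 and 67.4 CPM in *Mtm1* KO, and 0 of the 4 of its 6 genes that were tested were called by edgeR (3 at an unadjusted p of at most 0.05). With tamoxifen the immune sums were 45.5, 21.7, 46.6 and 46.5 CPM in WT and 67.4, 56.1, 92.9 and 54.9 CPM in *Mtm1* KO, again with 0 of 4 called by edgeR and 3 at an unadjusted p of at most 0.05. DESeq2 called 1 immune gene in each comparison, *Cd68* without and *Ptprc* with tamoxifen. Satellite cell markers, led by *Cdh15*, had sums of 28.2 ± 4.19 CPM (SD, n = 3) in WT, 24.7 ± 3.58 CPM (SD, n = 3) in *Mtm1* KO, 35.6 ± 3.37 CPM (SD, n = 4) in WT + TAM and 24.2 ± 4.39 CPM (SD, n = 4) in *Mtm1* KO + TAM, with 0 of 4 called by edgeR without tamoxifen (1 at an unadjusted p of at most 0.05, and *Pax7* by DESeq2) and 1 of 4 with it, *Chrdl2*, which was lower (3 at an unadjusted p of at most 0.05). With tamoxifen DESeq2 called *Chrdl2* and *Pax7* of the satellite cell list. None of these 3 lists had a gene at 0 in all libraries. Of the lists for fibroblasts, endothelial cells, smooth muscle and pericytes, fat cells, Schwann cells and nerve, and red blood cells, 0 genes were called by edgeR in either genotype comparison. At an unadjusted p of at most 0.05 they had 4, 2, 3, 0, 1 and 0 without tamoxifen and 3, 1, 2, 0, 1 and 0 with it. DESeq2 called *Acta2* and *Myh11* of the smooth muscle list without tamoxifen and *Lum* of the fibroblast list with it. Scaled by library size only, edgeR called 1 fibroblast gene without tamoxifen (*Pdgfra*) and 3 with it (*Dcn*, *Lum* and *Pdgfra*). With it, that scaling also gave *Pdgfrb* of the smooth muscle and pericyte list and *Cd68* and *Ptprc* of the immune list. The part of these cell types in the differences between genotypes was not tested.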

How the data were processed

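RNA-seq libraries of quadriceps from 16 mice were analysed. The authors deposited gene counts and RPKM values. Per the submitters' processing notes, reads were handled with bcl2fastq 2.17, STAR 2.5.0c and Cufflinks 2.2.1 on GRCm38. Not given in the sources used here are the annotation release, the counting mode and the strand setting. The deposited RPKM were checked against the counts over 3921 genes, with a largest relative deviation of 4.84e-04. No pair of libraries was identical (0 pairs).

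Counts were tested in R 4.3.3 with edgeR 4.0.16 (TMM, filterByExpr with a minimum count of 10 and a total of 15, quasi-likelihood test, Benjamini-Hochberg adjusted p of at most 0.01), with the 2 groups of each comparison in the fit. The difference of the tamoxifen effects came from 1 fit of the 4 groups. The SE of an edgeR log2 fold change was derived from the test, as its absolute value over the square root of the quasi-likelihood F statistic. Log2 CPM used a prior count of 2. Single values were compared by exact permutation tests. Planned tests of *Flrt1* between genotypes are not reported, as they were not independent of how *Flrt1* was chosen. The 14 libraries kept by the study were used, and all 16 as an alternative, since no reason for leaving out the other 2 is given. In that alternative the library labelled WT replicate 1 stays in WT, against its *Mtm1* count. Other alternatives were DESeq2 1.42.0, other scalings, no filter, limma 3.58.1 on log2(RPKM + 0.1) and log2(RPKM + 1), a threshold of 0.05 and leaving out each library in turn. The fit methods were tested on simulated data.

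Members and gene lists were chosen with earlier results of these data known. Named genes were the 9 members, *Mtm1*, *Esr1*, *Pgr* and *Greb1*, each pathway gene called in a pairwise comparison (up to 6 per list), *Macrod2*, genes within 250 kb of *Flrt1*, and the 6 genes most like *Flrt1* by root mean square difference among genes whose mean count reached 50 in a group. *Esrra*, *Stip1* and *Otub1* were singled out among the neighbours, and *Des*, *Ckm*, *Myh4*, *Pvalb*, *Chrdl2*, *Pax7*, *Cd68*, *Ptprc*, *Acta2*, *Myh11*, *Lum*, *Dcn*, *Pdgfra* and *Pdgfrb* among the markers, after their values were seen. The RefSeq promoter table has entries for 6 of the 9 members, without *Flrt1*, *Unc5d* and *Fgfr1*. The planned motif search was not run.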

Additional observations from a re-analysis of the deposited data

Results flagged for a closer look

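Levels of the 9 genes and of *Esr1*, *Pgr*, *Greb1* and *Mtm1* were compared within each label over all 16 libraries. CPM were scaled by TMM over the 14 libraries for the treated groups and over the 16 for the untreated labels. In 52 groups of 4 libraries, 7 had 1 library farther from the others than Dixon's critical value for 4 libraries allows, where chance gives about 1 in 20 groups. In 4 of the 7 the 3 others were at 0, where any count gives this outcome, so that rate does not apply to the 7. *Macrod1* had 536 CPM in the library labelled WT replicate 1, where the 3 others with that label had 232 to 270 CPM. *Mtm1* had 3.82 CPM in that library, where the others had 13.6 to 14.4 CPM. *Pgr* had 0.777 CPM in KO + TAM replicate 13, where the others had 0.883 to 0.899 CPM. It had 0.0637 CPM in KO replicate 11 and 0 in the others with that label. *Unc5d* had 0.122 CPM in WT + TAM replicate 6, 0.135 CPM in KO + TAM replicate 13 and 0.0327 CPM in KO replicate 9, each with the 3 others at 0. Values of *Pgr* and *Unc5d* at this level rest on few counts.

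The libraries that the comparisons do not use were above the WT libraries and above the others of their own label in 9 cases. *Flrt1* had 3.10 CPM in the library labelled WT replicate 1 and 2.21 CPM in the one labelled KO replicate 12, and the WT libraries had 0.677 to 1.37 CPM. In the former, *Macrod1* had 536 CPM. *Unc5a* had 20.5 CPM there, and the WT libraries had 9.76 to 19.9 CPM. *Unc5b* had 21.5 CPM there and 19.3 CPM in the library labelled KO replicate 12, and the WT libraries had 8.93 to 14.7 CPM. *Unc5c* had 0.435 CPM in the library labelled KO replicate 12, and the WT libraries had 0.222 to 0.351 CPM. *Greb1* had 0.464 CPM in the library labelled WT replicate 1 and 0.327 CPM in the one labelled KO replicate 12, and the WT libraries had 0.0369 to 0.296 CPM. The values of *Unc5c* and *Greb1* rest on 9 to 12 counts. The library labelled WT replicate 1 goes against its label in *Mtm1*, but not in *Flrt2* (6.96 CPM).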

How the results depend on the processing

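No paired analysis was possible because the groups share no replicate numbers. The study describes its RNA samples as coming from littermates, but the labels assign no library to a litter, so litter could not enter a fit. The fits with 1 library left out, the library labelled KO replicate 12 added alone, the overlap of the untreated genotypes with it, overlap under other scalings, permutation tests with 1 library left out, the counts without *Kl*, and the counts in lists of genes under other tools and scalings were in part chosen after seeing the data.

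The log2 fold change of *Flrt1* in WT + TAM against WT was 6.02 with limma on log2(RPKM + 0.1), 3.91 on log2(RPKM + 1) and 6.14 with 16 libraries. Between treated and untreated *Mtm1* KO it was 2.16 with limma on log2(RPKM + 1), a scale that understates changes from low levels. In *Mtm1* KO against WT it was -0.04 with 16 libraries, 0.53 with the library labelled KO replicate 12 alone added, and from -0.01 to 0.60 with 1 library left out. In *Mtm1* KO + TAM against WT + TAM it ranged from -2.23 to -1.61 with 1 library left out. The difference of the tamoxifen effects was -2.16, and -1.87 with 16 libraries. Fits with 16 libraries count the library labelled WT replicate 1 as WT, although its *Mtm1* count lies with the knockouts.

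For *Unc5b* in *Mtm1* KO + TAM against WT + TAM the values were 0.19 with library size only, 0.22 and 0.13 with limma on log2(RPKM + 0.1) and log2(RPKM + 1), and -0.26 to 0.12 with 1 library left out. Without tamoxifen they ran from -0.02 to 0.44 with 1 library left out.

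Members called in *Mtm1* KO against WT were 1 at a threshold of 0.05 and 1 with library size only, while with tamoxifen, *Flrt1* aside, the count was 1 (*Flrt2*) in each of the 8 fits with 1 library left out. Pathway genes called in *Mtm1* KO against WT were 5 with limma on log2(RPKM + 1), 3 with 16 libraries and 2 to 3 with 1 library left out, beside 756 of 14740, 211 of 14625 and 182 to 363 over all genes. With tamoxifen they were 6 to 10 with 1 library left out, *Kl* included in each, beside 424 to 921 over all genes. Fewer libraries leave fewer degrees of freedom. Beyond that, the cause was not tested.

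Depth limits *Unc5c*, *Unc5d*, untreated *Flrt1* and *Flrt3*, which have few counts. With 1 treated library left out, the exact permutation p stayed at 0.029 for *Flrt2*, the smallest that 3 against 4 libraries allow, and was 0.029 to 0.0571 for *Unc5a* and 0.029 to 0.0857 for *Fgfr1*.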
